A study of Mus musculus with 7 samples.

Results

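The 46 genes examined here encode cytosolic ribosomal proteins of the large, 60S subunit, and they were measured by bulk RNA-seq of the cerebral cortex of Slc6a8 KO and Slc6a8 WT mice. They were all rows, of 24346 in the deposited table, whose symbol is Rpl followed by a number with or without a final a, or Rplp0, Rplp1 or Rplp2. The rule reads the name and no measured value, but it was chosen with earlier results of these data known. The KO group held 4 male mice (CrT-/y, replicates 0 to 3) that carry a constitutive deletion of exons 5 to 7 of Slc6a8, the X-linked gene of the creatine transporter, and the WT group held 3 male littermates (CrT+/y, replicates 1 to 3). All 7 animals were on the C57BL/6J background and were sampled at postnatal day 100. Each gave 1 library, made with an mRNA kit from total cortical RNA. Values are FPKM, read fragments scaled to exon length and to the number mapped in the library, so levels can be compared between genes. Differences are log2 fold changes, KO minus WT, of FPKM + 0.1. In bulk tissue, fewer cells of a type and less RNA per cell cannot be told apart.

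The large subunit joins amino acids into a chain at its peptidyl transferase centre and lets the chain leave through an exit tunnel. Most of its proteins bind ribosomal RNA, many of them in the nucleolus, and most are needed in nearly equal numbers in the finished particle. Neurons make part of their protein in dendrites and axons, far from the cell body, and ribosomes are a large part of the cost of cell growth and upkeep. Many mRNAs of ribosomal proteins start with a C followed by a run of pyrimidines, the 5′ TOP tract, through which mTOR signalling sets their translation.

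The targeted gene matched the labels. Slc6a8 was at 12.4, 14.9, 14.7 and 15.7 FPKM in KO replicates 0 to 3 and at 32.3, 29.6 and 28.0 FPKM in WT replicates 1 to 3 (log2 fold change -1.05, adjusted p = 0.0024 with limma). All 4 excitatory and all 3 inhibitory neuron markers, which define the labelled tissue, were detected, and choroid plexus markers summed to 395 FPKM in WT replicate 2 against 2.63 to 51.3 FPKM in the other 6 libraries. The summed inhibitory neuron markers did not overlap between genotypes (230 to 244 FPKM in KO and 189 to 222 FPKM in WT), and neither did those of the olfactory bulb (5.90 to 16.1 FPKM in KO and 2.90 to 5.17 FPKM in WT), of which 1 marker in each list rose. Of the excitatory neuron markers 2 of 4 fell (sums of 1452 to 1572 FPKM in KO and 1465 to 1783 FPKM in WT), as did 2 of 3 endothelial markers (40.5 to 54.5 FPKM in KO and 52.9 to 63.1 FPKM in WT). Their part in the ribosomal protein values was not tested. WT replicate 3 stood apart from the other WT libraries in the genes examined here, so counts, lists and the members given by library that gain a call without it are also given without it. This library was singled out by its values in these same genes, so a call gained without it adds no support.

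All 46 genes were strongly expressed and all passed the filter of a mean of at least 1 FPKM. Their mean levels had a median of 216 FPKM, against 11.1 FPKM over the 12988 genes tested, and 43 of them were above 100 FPKM. The highest levels were those of Rpl41, whose protein is the smallest of the ribosome, Rplp2, an acidic protein of the stalk, and Rpl13. Rpl41 was at 468, 489, 463 and 490.4 FPKM in KO replicates 0 to 3 and at 359, 320.0 and 481 FPKM in WT replicates 1 to 3. The lowest were Rpl26, Rpl22 and Rpl30, the only members under 50 FPKM. Rpl26, at the rim of the exit tunnel, was at 24.3, 31.6, 18.1 and 38.6 FPKM in KO and at 21.3, 19.3 and 34.7 FPKM in WT libraries, and its libraries were spread widely within both genotypes. The means of the highest and the lowest member differed 16.3-fold. The annotation names 187 pseudogenes after 36 of the members, and the authors kept uniquely aligned reads only. The effect of this on the levels was not tested.

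**Figure D1:**
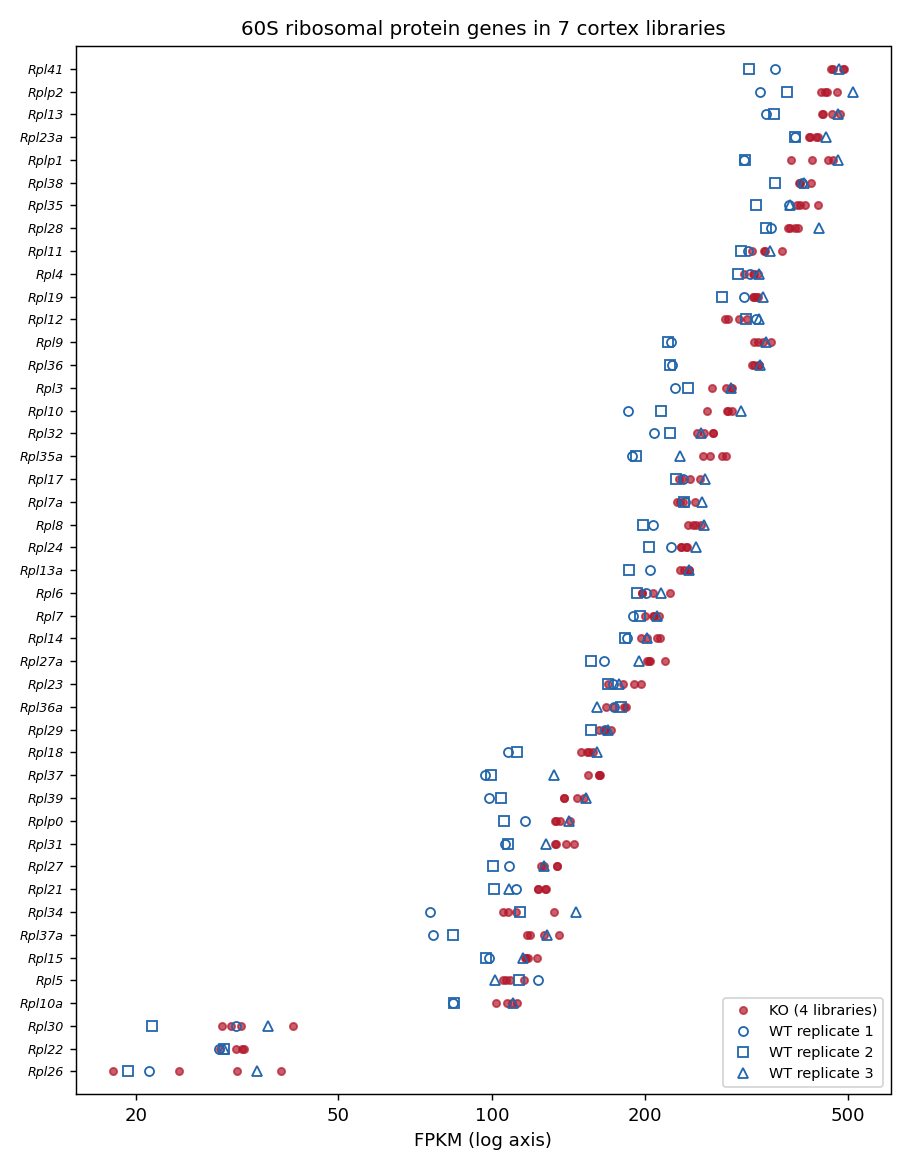
FPKM (log axis) of 45 of the 46 genes, ordered by mean level, with filled points for the 4 KO libraries and open symbols for each of the 3 WT libraries. Rpl26, Rpl22 and Rpl30 sit apart under 50 FPKM, and in many rows WT replicates 1 and 2 lie left of the KO points while WT replicate 3 lies among them.

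Most of the 46 genes had a higher mean in KO cortex, by a small amount. Their sum in WT replicate 3 (11160 FPKM) was above that of every KO library (10837 to 10953 FPKM). The difference therefore rests on WT replicates 1 and 2. The members share the same 7 libraries, so their counts are not independent results. The log2 fold change was above 0 in 43 members (93.5%), against 41.8% of all genes tested, and its median was 0.18 against -0.03 over all genes tested. Single changes ran from -0.12 in Rpl12 to 0.56 in Rpl37, with 17 members within 0.1 of 0. With limma and an adjusted p under 0.1, 6 members rose and 0 fell, where 2.9% of all tested genes were called higher and 7.25% lower. Over all genes, 377 rose and 941 fell, a split that scaling moved to 741 and 463 (upper quartile), 528 and 555 (quantile normalization) or 490 and 527 (median centring). At an unadjusted p under 0.05 in limma, 17 members were higher (background 8.19%) and 0 were lower (background 16.8%). KO libraries all lay above WT libraries in 7 members (background 6.57%), namely Rpl15, Rpl21, Rpl27a, Rpl31, Rpl35, Rpl35a and Rpl37, and below them in 0 (background 15%).

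The count of members that rose depended on every library. It was 29 without WT replicate 3 (background 10.3%), 2 without WT replicate 1 (background 0.616%), 2 without WT replicate 2 (1.88%), 2 without KO replicate 0 (1.26%), 0 without KO replicate 1 (0.0847%), 1 without KO replicate 2 (0.439%) and 2 without KO replicate 3 (0.678%), where each percentage is the share of all genes called higher in that fit. The median log2 fold change stayed above 0 throughout, at 0.29 without WT replicate 3, 0.14 without WT replicate 1 and 0.10 without WT replicate 2. It was 21 with array weights (background 4.64%), 10 after upper quartile scaling (background 5.71%) and 10 after quantile normalization (background 4.07%). The transcripts of the members measured 910 bp at the median, where those of all tested genes measured 3087 bp. Correcting each library for its trend on length left a median log2 fold change of 0.12, with 34 members above 0 and 7 that rose (background 3.79%).

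**Figure D2:**
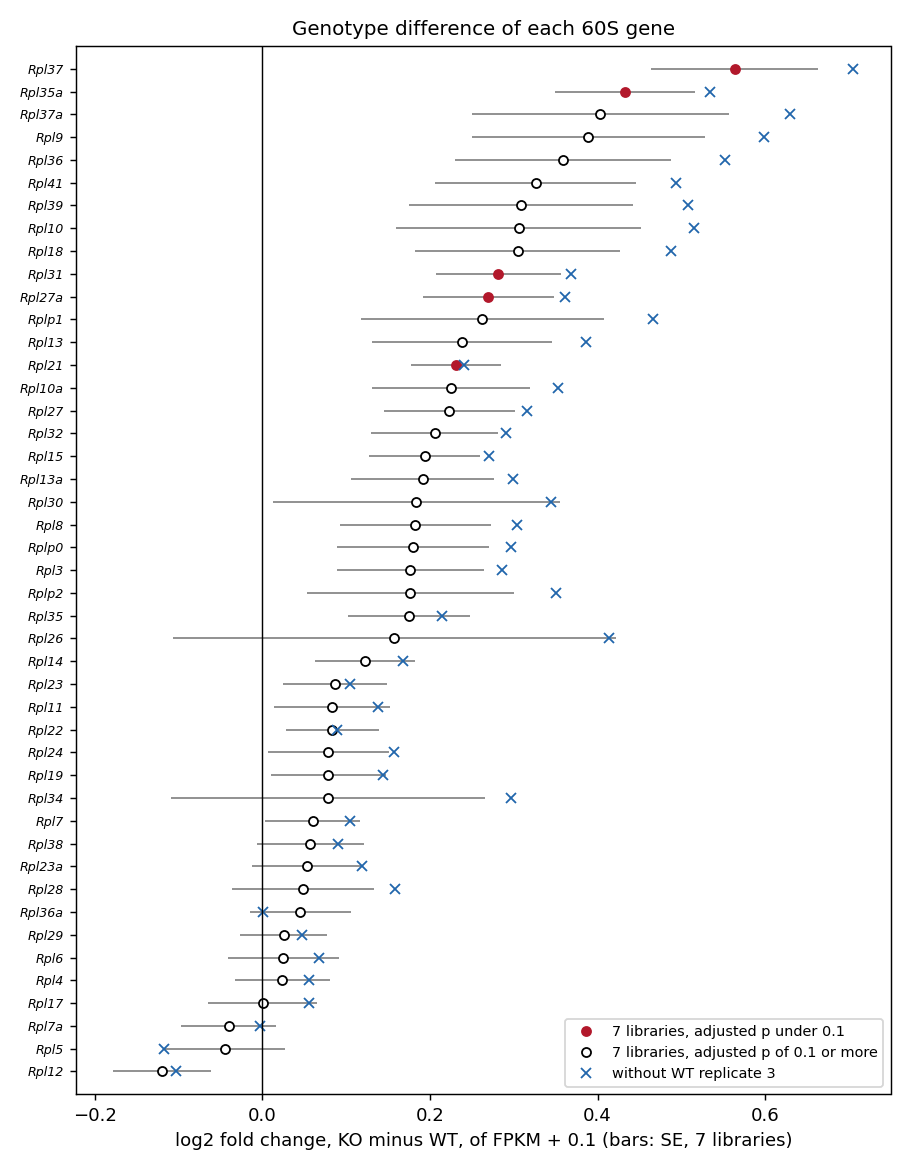
Log2 fold change (KO minus WT, of FPKM + 0.1) of 45 of the 46 genes with its SE over 7 libraries; red points passed an adjusted p of 0.1, open points did not, and blue crosses are the values without WT replicate 3. The 5 red points include Rpl37 at 0.56 and Rpl35a at 0.43, and for most genes the cross lies to the right of the point.

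Rpl37 and Rpl35a rose most among the members that passed the test. Rpl37, a zinc-binding protein near the exit tunnel (chromosome 15, 5116645 to 5119140, plus strand of GRCm38), was at 163, 155, 163 and 163 FPKM in KO replicates 0 to 3 and at 97.1, 99.9 and 132 FPKM in WT replicates 1 to 3. Every KO library was above every WT library, and WT replicate 3 was the nearest of the WT libraries. KO libraries averaged 161 ± 3.99 FPKM (SD, n = 4) and WT libraries 109.7 ± 19.5 FPKM (SD, n = 3), with a log2 fold change of 0.56 (SE 0.099, adjusted p = 0.031 with limma). It kept its call in 18 of 19 alternative settings, and without KO replicate 1 the adjusted p was 0.11 with limma.

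Rpl35a, one of the genes that cause Diamond-Blackfan anaemia in people when 1 copy is lost (chromosome 16, 33056453 to 33060189, plus strand), was at 268, 289, 283 and 260.3 FPKM in KO replicates 0 to 3. WT replicates 1 to 3 were at 188, 191 and 234 FPKM. The genotypes did not overlap, and the log2 fold change was 0.43 (SE 0.083, adjusted p = 0.036 with limma), called in 15 of 19 alternative settings. It lost its call without KO replicate 1 (adjusted p = 0.12), KO replicate 2 or WT replicate 1 (adjusted p = 0.11 in limma for both), and in the replicate block with the length correction (adjusted p = 0.16 in limma).

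The other members described here that rose were closer to the threshold. Rpl21 was at 128, 127, 124 and 123 FPKM in KO and at 112, 101 and 108 FPKM in WT libraries, the one called member in which WT replicate 3 was not the highest WT library (log2 fold change 0.23, adjusted p = 0.054 with limma). Rpl31, at the rim of the exit tunnel, was at 145, 133, 133 and 139.9 FPKM in KO and at 106, 108 and 128 FPKM in WT libraries (0.28, adjusted p = 0.068 with limma). Both kept the genotypes apart. Rpl27a was at 205, 203, 202 and 218 FPKM in KO and at 166, 156 and 195 FPKM in WT libraries (0.27, adjusted p = 0.084 with limma). Rpl27a and Rpl31 were each called in 9 and Rpl21 in 12 of the 19 alternative settings, and none of these 3 was called without any one of the 4 KO libraries. For each gene that kept the genotypes apart the exact permutation test (two-sided) gave p = 0.0286, the smallest that 4 against 3 libraries allow. These genes were picked for that separation, so this p adds no support to it. KO libraries all lay above WT libraries in 6.57% of all genes tested.

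**Figure D3:**
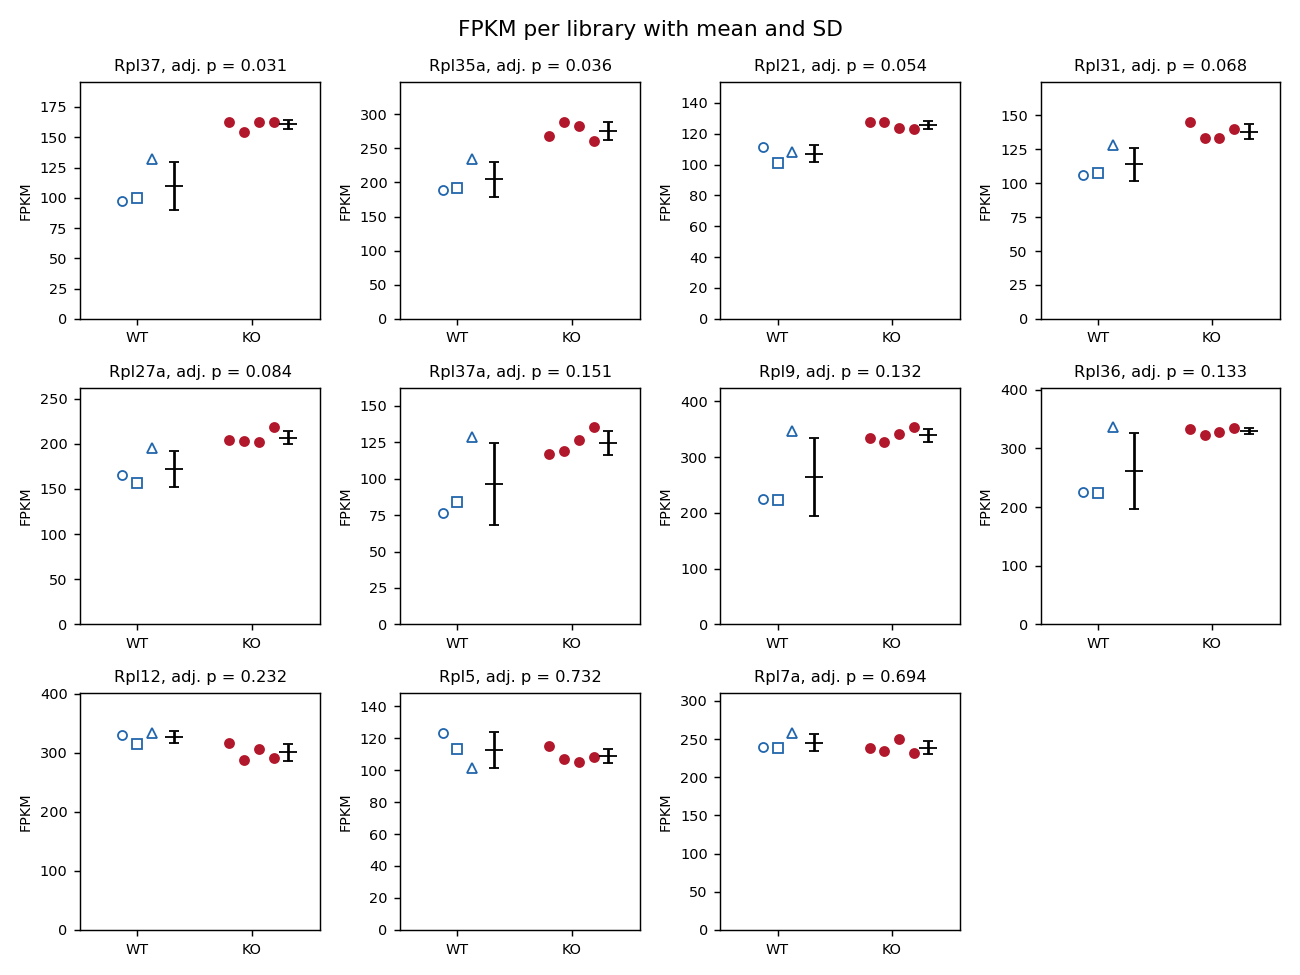
FPKM of 11 genes in each library, with WT at left (circle, square and triangle for replicates 1, 2 and 3), KO at right and black bars for the mean and SD of each genotype. The first 5 panels are genes that rose, the next 3 the largest differences among the others, in which WT replicate 3 lies within the KO points or just above them, and the last 3 the genes with the lowest log2 fold changes.

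The start sites of members that rose, and of members that did not, are shown to set the 5′ TOP tract beside the values. Of the 46 genes, 34 had an entry in the RefSeq promoter table (GRCm38.p6), with 40 start sites in all. Each line gives 15 bases before and 15 bases from the annotated start, with every CTTTC in capitals. The lines from Rpl37 to Rpl27a are of members that rose, and those from Rpl35 on are of members that did not. These are examples, and they hold CTTTC more often than the 40 start sites do. The other annotated starts of Rpl35a had no CTTTC near them.
Rpl37 (chr15:5116598-5116627, plus strand): agtttcctgggcggaagcttatccacagga
Rpl35a (chr16:33056467-33056496, plus strand, 1 of 3 annotated starts): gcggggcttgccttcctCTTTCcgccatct
Rpl31 (chr1:39367836-39367865, plus strand): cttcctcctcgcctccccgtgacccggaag
Rpl27a (chr7:109519180-109519209, plus strand): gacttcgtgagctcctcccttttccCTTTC
Rpl35 (chr2:39005117-39005146, minus strand): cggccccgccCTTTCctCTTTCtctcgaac
Rpl15 (chr14:18270972-18271001, minus strand): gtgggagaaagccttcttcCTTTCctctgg
Rplp2 (chr7:141447636-141447665, plus strand): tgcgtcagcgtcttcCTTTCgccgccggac
Rpl12 (chr2:32961697-32961726, plus strand): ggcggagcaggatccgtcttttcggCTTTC
Rpl7a (chr2:26910792-26910821, plus strand): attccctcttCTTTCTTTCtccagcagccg
From 20 bases before to 30 bases after the start, CTTTC stood on the sense strand of 16 of 40 member promoters (40%), against 6.57% of all 32851 promoters in the table, and on the other strand of 3 (7.5%, against 6.30%). CCGGAAG, the core of binding sites of ETS factors such as GABPA, stood on either strand in the 300 bases of 14 member promoters (35%, against 8.86% of all promoters and 16.0% of those of tested genes). Promoters of the small subunit genes held CCGGAAG in 37.0% and CTTTC near the start in 22.2%, so neither motif is particular to the members. The letters of the 2 motifs can share at most 1 base. The median log2 fold change was 0.18 over the 16 genes with CTTTC near a start and 0.15 over the 18 without it. In each group 2 rose (background 2.9%). CTTTC does not cover all pyrimidine runs, so this is not a split by TOP tract. Rpl34 and Rpl14, without CTTTC near a start, had runs of 20 and 14 pyrimidines there. A run of 8 or more lay at or next to the start in 14 member promoters (35%, against 9.72% of all promoters). Rpl7a, with CTTTC in 2 overlapping copies, and Rpl12 had values below 0, and Rpl37, with the largest change, held no CTTTC near its RefSeq start. The GENCODE annotation starts Rpl37 at 5116645, past the bases searched, so a tract at that start was not looked for.

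The next largest differences belonged to genes whose WT libraries disagreed. Rpl9 was at 333, 327, 341 and 354 FPKM in KO replicates 0 to 3 and at 225, 222 and 346 FPKM in WT replicates 1 to 3, so that 2 WT libraries were far below and 1 was within the KO range (log2 fold change 0.39, SE 0.14, adjusted p = 0.13 with limma). Rpl36 was at 334, 324, 327 and 334 FPKM in KO and at 226, 223 and 336 FPKM in WT libraries. Its log2 fold change was 0.36 (adjusted p = 0.13 with limma). Rpl37a, a zinc-binding protein of the subunit, was at 117, 119, 126 and 135 FPKM in KO and at 76.7, 84.0 and 129 FPKM in WT libraries (0.40, adjusted p = 0.15 with limma). Rpl41 showed the same order (0.33, adjusted p = 0.14 with limma), as did Rpl18 with 149.7 to 158 FPKM in KO and 108, 112 and 161 FPKM in WT replicates 1 to 3 (0.30, adjusted p = 0.17 with limma). Rpl13, among the most abundant members, was at 484, 444, 465 and 447 FPKM in KO and at 345, 359 and 479 FPKM in WT libraries (0.24, adjusted p = 0.21 with limma). Without WT replicate 3, Rpl9, Rpl36, Rpl37a, Rpl41 and Rpl18 all passed the test, with log2 fold changes of 0.60 (Rpl9), 0.55 (Rpl36), 0.63 (Rpl37a), 0.49 (Rpl41) and 0.49 (Rpl18) and adjusted p-values of 0.0025, 0.0025, 0.0036, 0.0046 and 0.0029 with limma. Without WT replicate 1, log2 fold changes were 0.27 (Rpl36), 0.26 (Rpl37a), 0.28 (Rpl41) and 0.20 (Rpl18). Without WT replicate 2 they were 0.26 (Rpl36), 0.32 (Rpl37a), 0.20 (Rpl41) and 0.23 (Rpl18), and none of these was called in either fit. Smaller differences came next to the threshold in 3 further genes. Rpl15 was at 123, 116, 117 and 118 FPKM in KO and at 98.8, 97.2 and 115 FPKM in WT libraries, with no overlap (0.19, adjusted p = 0.12 with limma). Rpl27 was at 125 to 134 FPKM in KO and at 108, 101 and 126 FPKM in WT libraries (0.22, adjusted p = 0.13 with limma), and Rpl32 was at 252 to 272 FPKM in KO and at 208, 224 and 258 FPKM in WT libraries (0.21, adjusted p = 0.14 with limma). These 3 genes and Rpl13 also passed in limma without WT replicate 3, at 0.39 (Rpl13, adjusted p = 0.0063), 0.27 (Rpl15, adjusted p = 0.0093), 0.32 (Rpl27, adjusted p = 0.010) and 0.29 (Rpl32, adjusted p = 0.013).

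Library by library, the 4 KO libraries lay close together and the WT libraries did not. The 46 genes summed to 10837 to 10953 FPKM in KO libraries and to 9191, 9019 and 11160 FPKM in WT replicates 1, 2 and 3. They took 2.79% to 2.85% of all FPKM in KO libraries and 2.28%, 2.34% and 2.78% in the WT replicates. The median log2 deviation of the members from their mean over the 7 libraries was between 0.055 and 0.079 in KO libraries, -0.16 in WT replicate 1, -0.20 in WT replicate 2 and 0.0999 in WT replicate 3. WT replicate 1 was below every KO library in 34 members and WT replicate 2 in 39, while WT replicate 3 was below every KO library in 9 and above every KO library in 16. In 25 members (54.3%), WT replicates 1 and 2 were both below all KO libraries and WT replicate 3 was not, a pattern seen in 9.81% of all genes tested. The SD was larger over WT than over KO libraries in 41 members (89.1%, against 71.5% of all genes tested), and the median coefficient of variation was 3.82% over KO and 11.4% over WT libraries. Over all genes tested, these medians were 5.82% and 9.27%. The members were thus more alike among KO libraries and less alike among WT libraries than the median tested gene. This comparison was not matched on level, and the members had a median of 216 FPKM against 11.1 FPKM over all genes tested.

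Transcript length moved with these library levels. The slope of the log2 deviation on log2 transcript length over all tested genes was 0.034 and 0.063 in WT replicates 1 and 2, the 2 libraries in which the members were low. It was -0.027 in WT replicate 3 and between -0.030 and -0.012 in KO libraries. Across the 46 members, log2 fold changes had a Spearman rho of -0.26 with transcript length and -0.38 with coding length, which share the same 7 libraries, and 0.06 with GC content. With the length trend corrected, Rpl37 and the other 5 members that rose were again called, together with Rpl15.

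By place in the subunit, the genes of the exit tunnel included Rpl37, which rose most. All 10 listed for it (Rpl4, Rpl17, Rpl19, Rpl22, Rpl23a, Rpl26, Rpl31, Rpl35, Rpl37 and Rpl39) had a value above 0, but with the length correction Rpl17, Rpl19 and Rpl23a were below 0, Rpl17 also after quantile normalization, and leaving out 1 library turned Rpl4, Rpl17 and Rpl26 among those described here. Their median was 0.12, and 2 of them, Rpl31 and Rpl37, rose (background 2.9%, with 41.8% of all tested genes above 0). The median was 0.18 without WT replicate 3, and 5 rose (background 10.3%). Rpl4 and Rpl17, whose extended loops line the tunnel, were among the members with the lowest values. Rpl4 was at 327, 326, 333 and 313 FPKM in KO and at 321, 304 and 334 FPKM in WT libraries (0.02, adjusted p = 0.82 with limma). Rpl17 was at 243 ± 10.7 FPKM in KO (SD, n = 4) and 243 ± 16.8 FPKM in WT libraries (SD, n = 3), with a log2 fold change of 6.8e-05 (SE 0.065). Rpl22, an RNA-binding protein that the ribosome can do without, was at 29.3, 31.4, 32.3 and 32.7 FPKM in KO and at 29.2, 29.8 and 29.8 FPKM in WT libraries (0.08, adjusted p = 0.37 with limma).

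The stalk, which recruits the GTPase factors of translation, is built from Rplp0, dimers of Rplp1 and Rplp2, and Rpl12 at its base. None of these 4 passed the test with all libraries. Rplp1 was at 386, 457, 467 and 425 FPKM in KO and at 312, 314 and 478 FPKM in WT libraries (0.26, adjusted p = 0.29 with limma). Rplp2 was at 442, 450.0, 455 and 475 FPKM in KO and at 336, 379.9 and 513 FPKM in WT libraries (0.18, adjusted p = 0.40 with limma), with 1 WT library above and 2 below all KO libraries. Rplp0 was at 142, 136, 134 and 133 FPKM in KO and at 116, 106 and 142 FPKM in WT libraries (0.18, adjusted p = 0.25 with limma). Without WT replicate 3, Rplp0 (0.30, adjusted p = 0.013), Rplp1 (0.47, adjusted p = 0.0098) and Rplp2 (0.35, adjusted p = 0.011) passed in limma. Rpl12 had the lowest log2 fold change of all members. It was at 317, 288, 306 and 291 FPKM in KO and at 330.1, 315 and 334 FPKM in WT libraries (-0.12, SE 0.058, adjusted p = 0.23 with limma), and without WT replicate 3 it was at -0.10 (adjusted p = 0.23 with limma).

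Rpl5 and Rpl11 bind 5S ribosomal RNA, and when they are not built into ribosomes they inhibit Mdm2, the ubiquitin ligase of p53. Neither passed the test. Rpl5 was at 115, 107, 105 and 108 FPKM in KO replicates 0 to 3 and at 123, 113 and 101 FPKM in WT replicates 1 to 3 (-0.05, adjusted p = 0.73 with limma), where WT replicate 3 was the lowest of all libraries. Rpl11 was at 343, 343, 324 and 371 FPKM in KO and at 318, 309 and 351 FPKM in WT libraries (0.08, adjusted p = 0.48 with limma). Rpl10a, which forms the L1 stalk on the other side of the subunit, was at 102 to 112 FPKM in KO and at 84.1, 84.4 and 109.9 FPKM in WT libraries (0.22, adjusted p = 0.18 with limma), and it passed without WT replicate 3 (0.35, adjusted p = 0.0066 with limma). Rpl5 and Rpl11 were not called there either. Of the 9 genes listed for Diamond-Blackfan anaemia, Rpl31 and Rpl35a rose (background 2.9%), 8 had a value above 0 (background 41.8%) and the median was 0.19. Without WT replicate 3 the median of these 9 was 0.32, with 6 that rose (background 10.3%). The 25 members in no list had a median of 0.18, with 24 above 0 (background 41.8%) and 3 that rose (background 2.9%). Without WT replicate 3 these had a median of 0.29, with 16 that rose (background 10.3%).

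The 19 members not chosen for naming ran from 0.02 to 0.31, with adjusted p-values of 0.18 to 0.85 with limma, and included Rpl10, Rpl10a, Rpl39 and Rpl35. Rpl7a, also below 0, was at 238, 235, 250.3 and 231 FPKM in KO and at 239, 238 and 258 FPKM in WT libraries (-0.04, adjusted p = 0.69 with limma). Beyond the short transcripts, the members shared some features that the choice by name did not use. Their GENCODE M21 transcripts had a median of 5 exons and a median coding length of 476 bp, from 75 bp in Rpl41 to 1257 bp in Rpl4. In 20 members at least 1 snoRNA gene lay within the gene on the same strand, 39 in all. The genes were spread over 17 chromosomes, with Rpl10, Rpl36a and Rpl39 on chromosome X, the chromosome of Slc6a8.

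Related copies were read beside the members, because reads that match both have no unique place and were not kept by the authors. Rpl34-ps1, listed as a pseudogene of Rpl34, was at 181, 208, 180.1 and 178 FPKM in KO and at 208, 141 and 173 FPKM in WT libraries (0.12, adjusted p = 0.57 with limma), above Rpl34 itself at 105 to 133 FPKM in KO and at 75.6, 113 and 146 FPKM in WT libraries. The sum of both overlapped between genotypes, at 286 to 316 FPKM in KO and 254 to 319 FPKM in WT libraries. The other 3 rows named as Rpl pseudogenes were under the filter. Of a list of 8 related genes, mostly paralogs of the members, 7 were in the table, 4 passed the filter and none was called. Without WT replicate 3, 1 of them rose (background 10.3%). Rpl22l1, the paralog of Rpl22, was at 37.1, 51.7, 57.2 and 75.4 FPKM in KO and at 39.8, 32.1 and 58.4 FPKM in WT libraries (0.35, adjusted p = 0.40 with limma), above Rpl22 in every library. Its value was 0.58 without WT replicate 3 (adjusted p = 0.12 with limma).

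Among the other genes of the pathway, the 31 proteins of the small subunit had a median log2 fold change of 0.21, with 26 above 0 (background 41.8%). Of these 31, 3 rose (Rps23, Rps16 and Rps21, background 2.9%) and 0 fell (background 7.25%). In the fit without WT replicate 3, 24 of them rose (background 10.3%) and the median was 0.35. Rps16 was at 265, 271, 264 and 259 FPKM in KO and at 150.2, 154 and 239 FPKM in WT libraries (0.58, adjusted p = 0.060 with limma). The level of this list was -0.27 and -0.22 in WT replicates 1 and 2, 0.089 in WT replicate 3 and 0.055 to 0.13 in KO libraries. The 35 assembly factors of the large subunit had a median of -0.10, and 5 of them fell, beside 7.25% of all tested genes, while 0 rose. Without WT replicate 3 the median was -0.15, with 14 that fell, beside 18.4% of all tested genes, and 1 that rose. Those that fell with all libraries included Rpf2, which brings the 5S particle to the subunit, at 7.12, 7.49, 7.83 and 7.02 FPKM in KO and at 9.46, 8.85 and 9.28 FPKM in WT libraries (-0.32, adjusted p = 0.042 with limma), and Rpf1 (-0.39, adjusted p = 0.042) and Ebna1bp2 (-0.26, adjusted p = 0.054 with limma). The 48 proteins of the mitochondrial large subunit had a median of -0.05, near the -0.03 of all tested genes. The 4 that fell were a share close to the background of 7.25%, and 0 rose. Without WT replicate 3 the median was 0.03, with 9 that fell (background 18.4%) and 7 that rose (background 10.3%). Mrpl42 was at 60.5, 49.2, 51.0 and 48.5 FPKM in KO and at 87.2, 75.5 and 71.5 FPKM in WT libraries (-0.58, adjusted p = 0.026 with limma). The 15 other mRNAs with a 5′ TOP tract, such as translation elongation factors, had a median of -0.04 and none was called. Without WT replicate 3 their median was -0.06, with 3 that rose (background 10.3%) and 5 that fell (background 18.4%). Eef1d was at 20.9 to 23.5 FPKM in KO and at 24.0 to 25.1 FPKM in WT libraries (-0.17, adjusted p = 0.12 with limma), while Eif3f was at 87.1 to 94.4 FPKM in KO and at 74.5 to 86.1 FPKM in WT libraries (0.17, adjusted p = 0.14 with limma). The lists share the same 7 libraries, and the differences between them were not tested.

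**Figure D4:**
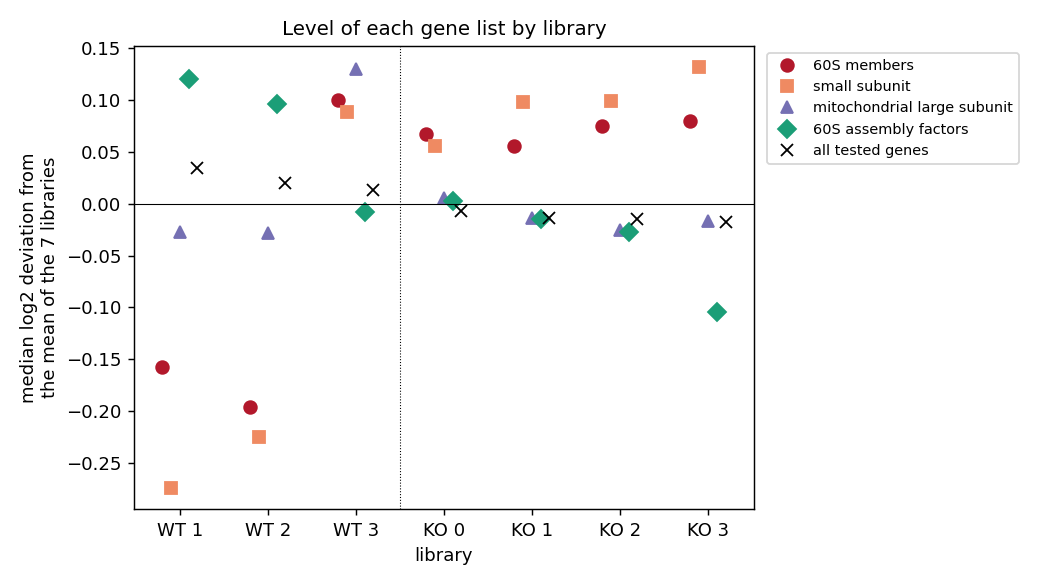
Median log2 deviation of each gene list from its mean over the 7 libraries, by library, with WT at left and KO at right of the dotted line. Both cytosolic subunits are low in WT replicates 1 and 2 and above 0 in WT replicate 3 and in all KO libraries, while the assembly factors are highest in WT replicates 1 and 2.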

How the data were processed

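Cortical RNA of 4 KO and 3 WT mice was sequenced in 1 library each. The authors aligned the reads to mm10 with the Tuxedo protocol (Bowtie and Cuffnorm in the submitters' processing notes, versions not given in the sources used here), allowed 2 mismatches, counted only reads with a unique place in annotated exons or across their junctions, and deposited FPKM per gene and library. Depth per library is not known from these values. Here 0.1 was added to FPKM, log2 was taken, and limma 3.58.1 (R 4.3.3) was fitted on genotype for the 12988 genes averaging 1 FPKM or more, with a variance trend and Benjamini-Hochberg adjustment over all of them. Fold changes are on the log2(FPKM + 0.1) scale. Genes were called at an adjusted p under 0.1, the study's threshold. Exact permutation tests enumerated the 35 ways to assign the genotypes. The fit was tested on simulated data.

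The members, lists, tests and rule for naming genes were chosen with earlier results of these data known, so no set test was run. The rule names Slc6a8, called members, the next 8 by p, the 5 largest and 5 lowest log2 fold changes, the 3 highest and 3 lowest levels, the stalk and 5S genes and, in other lists, the 3 smallest p. Not every gene that the rule gives in the other lists is described here. Rpl10, Rpl10a, Rpl34, Rpl35 and Rpl39 were described beside them after their values were seen. Positions and lengths are from GENCODE M21 (GRCm38, the assembly of mm10) and start sites from RefSeq. Of the tested genes, 99.4% had a length. Protein sequences were not used here. The values of 1 member and 1 related gene are not reported here, although the counts hold them.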

Additional observations from a re-analysis of the deposited data

Results flagged for a closer look

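Of 29 groups of 4 KO values checked with Dixon's test for a single value far from the rest (27 named genes, the summed level and the median deviation), 1 was found, where chance gives about 1 in 20. Rpl37 was at 155 FPKM in KO replicate 1, while the other KO libraries lay within 162.5 to 162.8 FPKM. Its gap to the nearest was 0.97 of the range, above the critical value of 0.829, and it remained above all 3 WT libraries.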

How the results depend on the processing

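The number of members that rose was 6, and it was also 6 with 1 or 0.01 added to FPKM, with a mean of at least 5 FPKM and after median centring, and 7 after the length correction. It was 3 without a filter on low values and 3 without a variance trend, 10 after quantile normalization and 10 after upper quartile scaling, and 21 with array weights. The members that fell numbered 0 in all of these. With the replicate number as a replicate block it was 2, and 1 with the replicate block and the length correction. The labels do not say whether equal numbers pair the animals. The deviations of same-numbered libraries correlated at -0.078, 0.046 and -0.051, and 1 of 6 libraries correlated best with its own number. These values cannot settle whether animals were paired. Leaving out 1 library gave 0 to 29, with a median log2 fold change of 0.10 to 0.29. Over all genes tested, 377 rose and 941 fell; this was 206 and 524 without a filter, 528 and 555 after quantile normalization, 741 and 463 after upper quartile scaling, 490 and 527 after median centring, 300 and 625 without a variance trend, 602 and 1295 with array weights, 166 and 410 with the replicate block, and 122 and 212 with the block and the length correction. Leaving out 1 library gave 11 to 1342 that rose and 53 to 2394 that fell. The cause of these shifts was not tested. The values of gene lists without WT replicate 3 and with the length correction were chosen after seeing the data. Giving single genes without WT replicate 3 was also decided after seeing the data.

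None of the 6 members called changed direction in any setting. The length correction left 34 members above 0 in place of 43. Of the named members, 6 changed direction in some setting. Rpl17 was at -0.0055 after quantile normalization, -0.026 after the length correction, -0.0013 with the block and the length correction, and between -0.038 and -0.0054 in the fits without KO replicate 1, KO replicate 3, WT replicate 1 or WT replicate 2, and reached 0.055 without WT replicate 3. Rpl5 was at 0.017 and Rpl7a at 0.022 after upper quartile scaling, and Rpl5 was at 0.023 without WT replicate 1 and -0.12 without WT replicate 3. Rpl26 was at -0.014 without KO replicate 3 and -0.0057 without WT replicate 2, where Rpl30 was at -0.033 and Rpl4 at -0.012. Without WT replicate 3 these were at 0.41 (Rpl26), 0.34 (Rpl30) and 0.056 (Rpl4).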
